A study of Homo sapiens with 10 samples.

Results

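The 9 genes described here encode the 5 DNA-binding subunits of NF-kappaB (NFKB1, NFKB2, REL, RELA and RELB) and 4 kinases that act before them (CHUK, IKBKB, IKBKE and MAP3K14). They are taken by symbol, by a rule that uses no measured value, although the set was proposed with earlier results of these data known, and each of the 9 had 1 row among the 25538 genes of the count table. The study sequenced RNA from A549, a human lung adenocarcinoma cell line, to ask how the coactivator EP300 bears on fast gene regulation by the glucocorticoid receptor. Cells carried a transient vector for GFP alone or for EP300 joined to GFP, 1 ug each, and were sorted for GFP. At 48 h after transfection they received ethanol, the solvent (EtOH), or 100 nM dexamethasone, a synthetic glucocorticoid (Dex), for 1 h. There were 3 libraries of GFP EtOH, 3 of GFP Dex, 2 of P300 EtOH and 2 of P300 Dex, where P300 stands for the EP300-GFP vector. All groups therefore share transfection, sorting and a vector that makes GFP, and no group was left untransfected. The labels do not state whether libraries of a group were grown separately, and the p-values below therefore rest on a spread between libraries that may be technical.

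NF-kappaB is a family of transcription factors that bind DNA as pairs and drive genes of inflammation and cell survival. NFKB1 and NFKB2 are made as long precursors, p105 and p100, which are trimmed to p50 and p52, while RELA, RELB and REL carry their own activation domains. In the canonical pathway CHUK (IKKalpha) and IKBKB (IKKbeta) mark the inhibitor IkappaB for breakdown and free dimers such as p50 with RELA. In the non-canonical pathway MAP3K14, also called NIK, activates CHUK, which leads to the trimming of p100 and frees p52 with RELB. IKBKE is an IKK-related kinase known for its part in antiviral signalling. Glucocorticoids are known to restrain NF-kappaB activity, and EP300 is known to bind and acetylate RELA.

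NF-kappaB binds a short DNA element, the kappaB site, and several of its own genes are textbook targets. Matches to the kappaB consensus, searched on both strands in the 250 bases before each listed start, are printed here because NFKB2 is the member whose level differed most with P300. RefSeq windows (GRCh38.p14) were found for 7 of the 9 genes by symbol, and RELB and IKBKB are named only. Each line gives 30 bases of the plus strand, 5′ to 3′, with the matched bases in capitals.
NFKB2, chr10:102394462-102394491, plus strand: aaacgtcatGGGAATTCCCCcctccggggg
NFKB2, chr10:102394490-102394519, plus strand: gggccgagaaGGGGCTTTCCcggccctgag
NFKB2, chr10:102395519-102395548, plus strand: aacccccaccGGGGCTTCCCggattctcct
NFKB2, chr10:102395674-102395703, plus strand: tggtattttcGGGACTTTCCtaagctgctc
NFKB1, chr4:102501300-102501329, plus strand: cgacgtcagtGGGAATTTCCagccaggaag
REL, chr2:60881518-60881547, plus strand: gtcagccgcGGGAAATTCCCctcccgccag
The matches of NFKB2 lie before 2 of its 3 listed starts. No match was found in the windows of RELA, IKBKE, CHUK and MAP3K14, before the other start of NFKB1 or before the remaining start of NFKB2. Of 35116 such windows over all genes, 3498 (9.96%) hold a match. A match is a description of the letters and not a measured binding site.

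Library totals ran from 9215550 to 13122367 counts in 9 libraries, and P300 EtOH replicate 2 held 2278717 counts with 11861 genes at 0. In CPM, counts scaled to a common library size with TMM factors, 3 of its counts make 1.34, and its smallest member count was 18, of IKBKE. EP300, the transfected gene, took 0.0271% to 0.0386% of counts in the GFP libraries and 28.6%, 28.8%, 13.4% and 2.42% in P300 EtOH replicate 1, P300 Dex replicate 1, P300 EtOH replicate 2 and P300 Dex replicate 2. Of 7 markers of A549 and lung epithelium all had a row, and their summed level was 12540 to 20100 CPM in GFP and 7482 to 22130 CPM in P300 libraries. Among them EPCAM was low, at 0.918 to 18.8 CPM, and in EtOH it was higher with the P300 vector, by 2.93 ± 0.62 on the log2 scale (edgeR adjusted p = 0.0387), with 1.61 ± 0.60 in Dex (adjusted p = 0.294). Summed fibroblast markers (5 of 5 with a row) were 13.6 to 28.5 CPM in GFP and 48.4 to 72.5 CPM in P300 libraries, endothelial markers (3 of 5) 0.841 to 2.07 and 4.23 to 36.7 CPM, and leukocyte markers (4 of 5) 7.49 to 11.3 and 10.6 to 19.2 CPM. The leukocyte marker PTPRC had a median of 0 CPM over the 10 libraries. The summed fibroblast marker level, mostly COL1A1, the summed endothelial marker level, EPCAM in EtOH and the EP300 share moved with the vector. They did so in each comparison of P300 with GFP below, and their part in those results was not tested.

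Per kilobase of exon, NFKB2 was the highest of the 9 genes in GFP EtOH cells, at 34.7 ± 1.05 CPM per kb (SD, n = 3). RELB followed at 21.5 ± 0.720, RELA at 19.9 ± 1.64 and MAP3K14 at 17.6 ± 1.83 CPM per kb, and neighbours among these 3 differed by less than their SDs added together. IKBKE (7.52 ± 1.53), IKBKB (6.61 ± 0.816) and CHUK (5.92 ± 1.65 CPM per kb) lay within their spread of each other, as did NFKB1, with a mean of 7.60 CPM per kb and libraries at 37.0 to 55.0 CPM. REL, best known from lymphoid cells, was lowest at 1.70 ± 0.321 CPM per kb. This order depends on the exon lengths. In CPM, without lengths, RELA (109), MAP3K14 (101.7) and IKBKB (74.3) were above RELB (65.4), with NFKB2 still highest (155.6). In GFP Dex cells NFKB2 was again at the top with 29.5 ± 4.49 CPM per kb, ahead of RELA at 19.6 ± 5.56, and REL was again lowest at 1.61 ± 0.325.

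The order differed in the P300 libraries. RELA had the highest mean level per kb in P300 EtOH, at 17.7 ± 2.51 CPM per kb (SD, n = 2), with MAP3K14 at 14.2 ± 5.69, RELB at 12.7 ± 4.53 and NFKB2 at 12.6 ± 3.41. In P300 Dex, RELA was at 19.4 ± 0.841, MAP3K14 at 15.5 ± 8.59, NFKB2 at 15.2 ± 4.89 and RELB at 10.4 ± 0.449 CPM per kb. In P300 EtOH these 4 genes lay within their spread of one another. MAP3K14 was above RELA in replicate 1 of both P300 groups, at 18.3 against 15.9 CPM per kb in EtOH and 21.6 against 20.04 in Dex, and below it in replicate 2 of both.

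**Figure D1:**
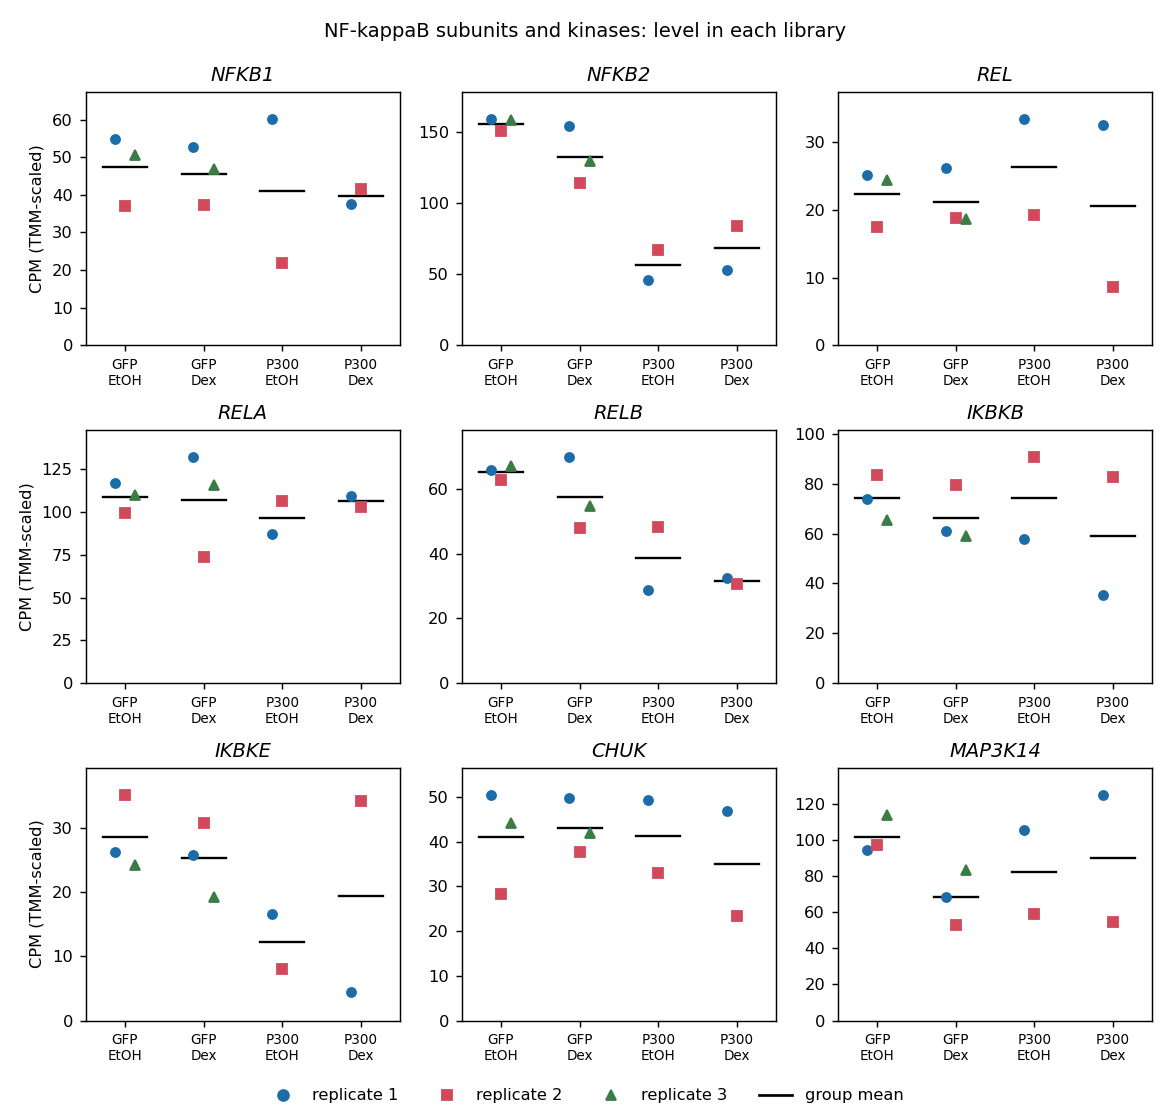
Level of each of the 9 genes in each library, in CPM on a linear axis that starts at 0. Points are libraries, their shape and colour give the replicate number and bars are group means. NFKB2 lies at 113.8 CPM or above in the 6 GFP libraries and at 83.6 CPM or below in the 4 P300 libraries.

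The ratio of NFKB2 to RELA within a library needs no scaling between libraries. Per kb it was 1.35 to 1.89 in the 6 GFP libraries, above 1 in 6 of 6, and 0.585 to 0.989 in the P300 libraries, above 1 in 0 of 4. Against other subunits the ranges overlapped. NFKB2 to RELB was 1.487 to 1.625 per kb in GFP and 0.940 to 1.844 in P300 libraries. NFKB2 to NFKB1 was 3.846 to 5.669 and 1.055 to 4.272. Of the summed subunit level per kb, NFKB2 made up 40.6% ± 1.25 in GFP EtOH and 38.5% ± 2.08 in GFP Dex (SD, n = 3 each), against 24.1% ± 4.10 in P300 EtOH and 28.5% ± 7.74 in P300 Dex (n = 2 each). RELA made up 23.3% ± 0.633, 25.2% ± 3.12, 34.3% ± 1.29 and 36.8% ± 3.51 in the same order of groups. The share of RELB was 25.2% ± 0.826, 24.6% ± 1.07, 24.3% ± 6.26 and 19.7% ± 1.89. By counts, without dividing by length, the shares in GFP EtOH were 39.0% for NFKB2, 27.2% for RELA and 16.4% for RELB. A ratio within a library shows unequal levels and does not say which of the genes changed.

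**Figure D2:**
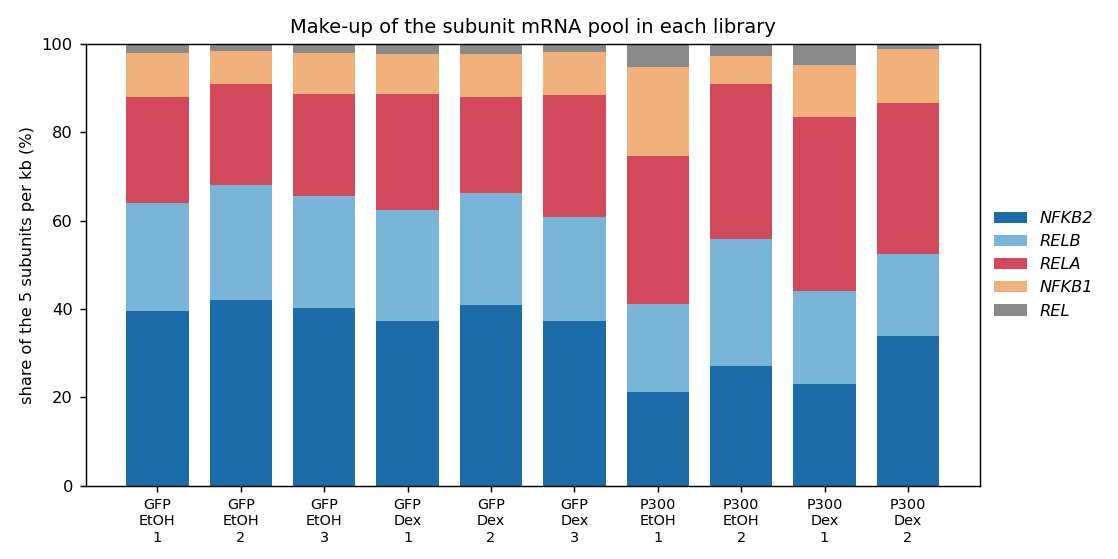
Share of each NF-kappaB subunit in the summed level of the 5 subunits per kb of exon, in percent, for each of the 10 libraries. NFKB2 is the largest part in the 6 GFP libraries, and the RELA part exceeds it in the 4 P300 libraries.

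The comparison of P300 with GFP cells in EtOH asked which genes differed with the EP300 vector in the absence of hormone. Of the 9 genes 1 passed the test, NFKB2, which was lower in P300 cells. Over all genes tested 541 of 19433 (2.78%) passed, and 1.19% passed in the lower direction. At an unadjusted p under 0.05 there were 2 of the 9, NFKB2 and RELB, beside 25.9% of all genes, and DESeq2 called 1 of the 9, NFKB2, beside 12.6%. The median log2 fold change of the 9 was -0.19, beside -0.18 for all genes tested, and 7 of 9 were below 0.

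NFKB2, the precursor gene of p52, stood at 158.6, 150.1 and 158.0 CPM in GFP EtOH replicates 1, 2 and 3 and at 45.5 and 67.1 CPM in P300 EtOH replicates 1 and 2. The groups did not overlap, and the GFP libraries lay close together. How many of all genes had groups that did not overlap was not counted. Non-overlap, here and in the paragraphs below, is therefore a description of the libraries only. The log2 fold change was -1.47 ± 0.31 (SE), or -1.29 relative to the median of all genes, with an adjusted p of 0.0382 (edgeR's quasi-likelihood test, Benjamini-Hochberg over all genes tested). Between libraries of the same replicate number the log2 CPM difference was -1.80 for number 1 and -1.16 for number 2, where the medians of all genes were -0.20 and -0.54. Without P300 EtOH replicate 2, the shallow library, the change was -1.85 (adjusted p = 0.0349), and without P300 EtOH replicate 1 it was -1.24 (adjusted p = 0.0453). The call was lost without any 1 of the 6 GFP libraries (adjusted p = 0.0718 to 0.147, change -1.47 to -1.52), and with only the libraries compared (adjusted p = 0.0976). The edgeR fit takes 1 spread from all 10 libraries, although P300 libraries spread more widely. With limma's voom and a weight per construct, which lets the spread differ between constructs, the call was also lost (-1.57 ± 0.45, voom adjusted p = 0.188). With only the libraries compared and the replicate number as a block the call was kept (-1.44, edgeR adjusted p = 0.000284). There GFP EtOH replicate 3 is alone in its block, so the change rests on 2 pairs. With 2 pairs a gene holds little information on its own spread, and the small p is no stronger evidence. In bulk RNA, fewer cells that express a gene and less RNA per cell cannot be told apart.

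RELB, the usual partner of p52, stood at 66.0, 62.9 and 67.1 CPM in GFP EtOH and at 28.8 and 48.3 CPM in P300 EtOH. These groups did not overlap either, and P300 EtOH replicate 2 was the nearer to the GFP libraries. The log2 fold change of -0.77 ± 0.32 did not pass the test (edgeR adjusted p = 0.153). Leaving out P300 EtOH replicate 1 gave -0.46 (adjusted p = 0.349), and leaving out replicate 2 gave -1.25 (adjusted p = 0.0624). For the canonical subunits, NFKB1 had a fitted change of -0.19 ± 0.40, RELA of -0.17 ± 0.29 and REL of 0.25 ± 0.51, with groups that overlapped for all 3. Their 95% intervals reached from -1.08 to 0.69, from -0.82 to 0.47 and from -0.87 to 1.37, so changes of about the size fitted for RELB were not excluded for any of them.

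Among the kinases, IKBKE stood at 26.3, 35.1 and 24.2 CPM in GFP EtOH and at 16.5 and 8.05 CPM in P300 EtOH. The groups did not overlap, and the value of P300 EtOH replicate 2 rests on 18 counts. Its log2 fold change was -1.18 ± 0.68 (edgeR adjusted p = 0.298), and its 95% interval, -2.67 to 0.32, was the widest of the 9. MAP3K14 had a fitted change of -0.30 ± 0.39, IKBKB of -0.004 ± 0.376 and CHUK of 0.02 ± 0.39, and the groups overlapped for all 3.

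With hormone, in P300 Dex against GFP Dex, 0 of the 9 passed edgeR's test, where 2 of 19433 genes passed (0.0103%). At an unadjusted p under 0.05 there were 2 of the 9, NFKB2 and RELB, beside 12.7% of all genes, and DESeq2 called 1, NFKB2, beside 3.66%. NFKB2 stood at 153.7, 113.8 and 129.0 CPM in GFP Dex and at 52.6 and 83.6 CPM in P300 Dex. The groups did not overlap, and the P300 library with the smallest EP300 share, replicate 2 at 2.42%, had the higher NFKB2 level. EP300 share and replicate number cannot be told apart there, and RELB was lower in that library (30.7 against 32.6 CPM). The log2 fold change was -0.96 ± 0.30 (edgeR adjusted p = 0.243), and DESeq2 gave -0.87 (adjusted p = 0.0475). By replicate number the log2 CPM difference was -1.54 for number 1 and -0.44 for number 2.

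RELB stood at 69.9, 47.9 and 54.8 CPM in GFP Dex and at 32.6 and 30.7 CPM in P300 Dex. The groups did not overlap, and the P300 libraries lay close together. The log2 fold change was -0.86 ± 0.32 (edgeR adjusted p = 0.284), with differences of -1.10 and -0.64 by replicate number. The other 7 genes had groups that overlapped and fitted changes from -0.38 for IKBKE to 0.39 for MAP3K14. IKBKE was at 4.52 CPM in P300 Dex replicate 1 and at 34.2 CPM in replicate 2, so its P300 Dex libraries lay on both sides of the GFP Dex values of 25.8, 30.7 and 19.2 CPM. The comparisons with and without hormone use different libraries but 1 estimate of the spread from all 10.

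**Figure D3:**
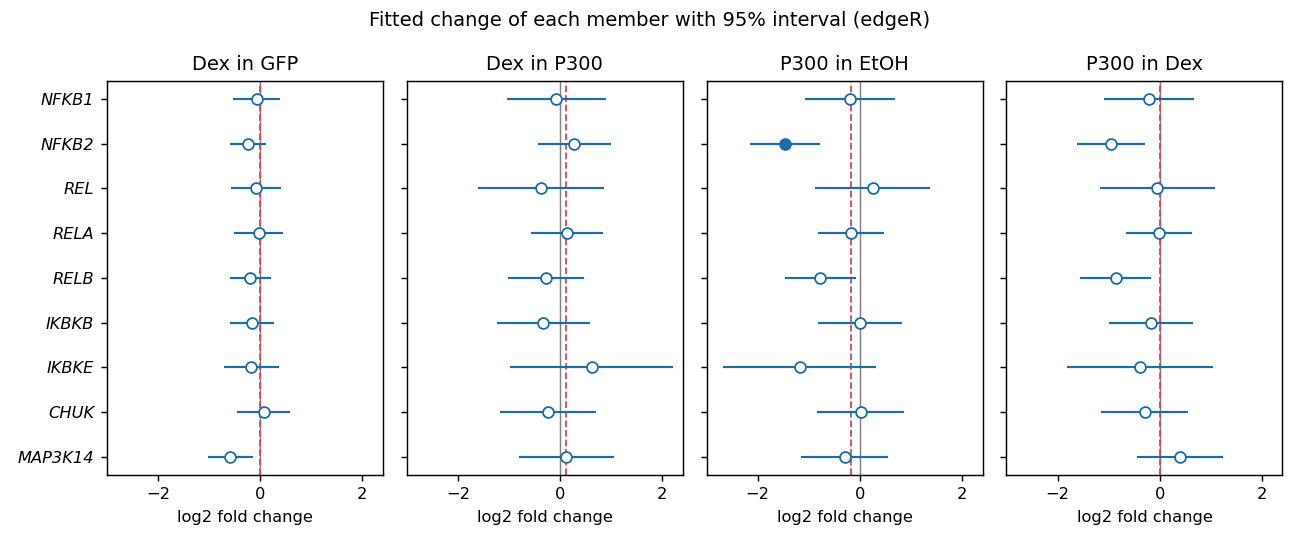
Fitted log2 fold change of each of the 9 genes in 4 comparisons, with the 95% interval. The filled point passed the adjusted threshold of 0.05, open points did not, and the dashed line is the median of all genes tested. NFKB2 in P300 against GFP EtOH, at -1.47, is the only filled point.

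The comparison of Dex with EtOH in GFP cells asked which genes had moved after 1 h of hormone. In the fit without the replicate number, 0 of the 9 passed edgeR's test, beside 7 of 16697 genes (0.0419%), and 1 of the 9, MAP3K14, had an unadjusted p under 0.05, beside 3.43% of all genes. DESeq2 called 0 of the 9 and 0.335% of all genes. With the replicate number as a block, 277 genes passed (1.66%), 106 of them lower (0.635%), and MAP3K14 was the 1 member among them. Same-numbered libraries deviated together from their group means. This comparison shares its EtOH libraries with that of P300 against GFP in EtOH, so values for a gene in both are not independent.

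MAP3K14, the kinase that starts the non-canonical pathway, stood at 94.4, 96.8 and 113.8 CPM in GFP EtOH replicates 1, 2 and 3 and at 68.5, 53.1 and 83.4 CPM in GFP Dex. The groups did not overlap, and Dex was the lower in 3 of 3 pairs, by log2 CPM differences of -0.46, -0.86 and -0.45. Without the block the log2 fold change was -0.58 ± 0.19 (edgeR adjusted p = 1). With the block it was -0.60 ± 0.11 (edgeR adjusted p = 0.012). With the block on all 10 libraries it was -0.61 ± 0.24 and the call was lost (adjusted p = 1). An alternative chosen after seeing the data used the block on the GFP libraries with each of them left out in turn. It gave -0.66 to -0.47 with an edgeR adjusted p of 5e-07 to 0.0196. Each such fit leaves the partner of the omitted library alone in its block, so in effect the whole pair is left out and 2 pairs remain. With 2 pairs a gene holds little information on its own spread. These adjusted p are therefore no stronger evidence than that of the fit on 3 pairs. Leaving out either library of a pair gave nearly the same value. The smallest adjusted p came without GFP Dex replicate 2, where 1183 genes passed, beside 277 with all GFP libraries.

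The strand setting of the counting is not given in the sources used here, and an antisense gene, MAP3K14-AS1, covers 713 bases or 12.3% of the MAP3K14 exons in GENCODE 29. Without strand, reads of the shared stretch cannot be assigned to either gene. MAP3K14-AS1 stood at 8.33, 10.2 and 8.33 CPM in GFP EtOH and at 5.59, 7.16 and 5.30 CPM in GFP Dex. Its log2 fold change was -0.57 ± 0.23 (edgeR adjusted p = 1), and its level was a small part of that of MAP3K14. GENCODE 29 also lists AC010733.2 over 43.3% of the REL exons and C1orf147 on the opposite strand over 4.12% of those of IKBKE. Levels of both members are therefore uncertain, by an amount that a share of exon length does not give. AC010733.2 had no row in the count table. C1orf147 stood at 3.58 CPM or below in each library, with a Dex change of -1.66 ± 0.45 in GFP cells (edgeR adjusted p = 0.762) and -5.42 ± 1.22 in P300 cells (adjusted p = 0.139).

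The other 8 members had overlapping groups in GFP cells. NFKB2 was lower with Dex in 3 of 3 pairs, by -0.05, -0.40 and -0.29 on the log2 CPM scale, with a fitted change of -0.24 ± 0.16 (edgeR adjusted p = 1) and of -0.25 ± 0.10 with the block (adjusted p = 0.247). RELB had differences of 0.08, -0.39 and -0.29, and RELA of 0.17, -0.43 and 0.08. Fitted changes of the remaining subunits were -0.07 ± 0.20 for NFKB1 and -0.08 ± 0.22 for REL. Those of the kinases were -0.16 ± 0.19 for IKBKB, -0.18 ± 0.24 for IKBKE and 0.07 ± 0.23 for CHUK. IKBKB (-0.28, -0.07 and -0.15) and IKBKE (-0.03, -0.19 and -0.33) were also lower with Dex in 3 of 3 pairs. How many of all genes were lower in 3 of 3 pairs was not counted. The median of the 9 was -0.16, beside 0.00 for all genes tested.

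**Figure D4:**
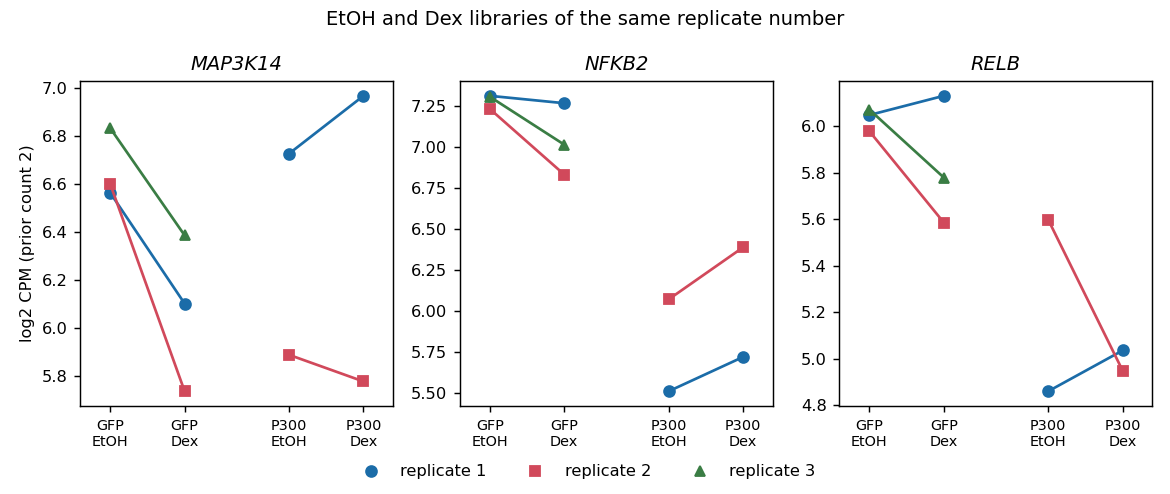
log2 CPM (prior count 2) of MAP3K14, NFKB2 and RELB in EtOH and Dex libraries, with lines joining libraries of the same replicate number. The vertical axes do not start at 0. MAP3K14 goes down in 3 of 3 GFP pairs, and in P300 it goes up by 0.24 in number 1 and down by 0.11 in number 2.

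In P300 cells, 0 of the 9 passed edgeR's test of Dex against EtOH, as did 0% of 19433 genes, and 0 of the 9 had an unadjusted p under 0.05, beside 13.2% of all genes. DESeq2 called 0 of the 9 and 2.59% of all genes. MAP3K14 stood at 105.6 and 59.0 CPM in P300 EtOH replicates 1 and 2 and at 124.9 and 54.6 CPM in P300 Dex. Replicate 1 was above replicate 2 in both treatments, and the fitted change was 0.12 ± 0.42, with a 95% interval of -0.81 to 1.05 that includes the value fitted in GFP cells. NFKB2 was higher with Dex in 2 of 2 pairs, by 0.21 and 0.32, where the medians of all genes were 0.04 and 0.48, and its fitted change was 0.28 ± 0.32. IKBKE had pair differences of -1.83 and 2.06 and a fitted change of 0.62 ± 0.72. The other 6 members had fitted changes from -0.37 for REL to 0.14 for RELA.

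The difference between the Dex effects in P300 and GFP cells was tested as an interaction. Of the 9 genes 0 passed, as did 0% of all genes, 0 had an unadjusted p under 0.05 (8.73% of all genes), and DESeq2 called 0 (0.659% of all genes). The interaction was 0.69 ± 0.55 for MAP3K14 (edgeR adjusted p = 0.856) and 0.52 ± 0.42 for NFKB2 (adjusted p = 0.859). For MAP3K14 it was 0.00 without P300 Dex replicate 1 and 1.16 without P300 EtOH replicate 1. The intervals were -0.51 to 1.89 for MAP3K14 and -0.40 to 1.43 for NFKB2. They do not separate an equal Dex effect in P300 cells from a weaker, an opposite or a stronger one.

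Other genes of the pathway were counted from lists chosen with earlier results of these data known, and the genes named from the fit with the block or from DESeq2 were named after their values were seen. Of 39 genes of upstream signalling, all 39 with a row and tested, 0 passed edgeR's test without the block in any of the 5 comparisons, with 2 to 6 at an unadjusted p under 0.05. The 6 were in P300 against GFP EtOH, where 25.9% of all genes had such a p. In P300 against GFP EtOH the smallest p among them belonged to the adaptor gene MYD88 (-1.19 ± 0.36, adjusted p = 0.0833) and the kinase gene IRAK1 (-1.07 ± 0.34, adjusted p = 0.0916). DESeq2 called 1 there, MYD88, and the block, with which 2.55% of all genes passed, 1, the ubiquitin ligase gene BIRC3 (-1.62 ± 0.30, edgeR adjusted p = 0.0393). Of 20 inhibitor and feedback genes 1 fell there, TNIP1, a partner of the ubiquitin editor A20, at -1.16 ± 0.25 (edgeR adjusted p = 0.0387). In that fit without the block 1.19% of all genes passed in the lower direction. With the block 2 fell, TNIP1 and TNFAIP3, which encodes A20 (-1.39 ± 0.24, adjusted p = 0.0342). Of 40 target genes 39 had a row and 35 were tested there, and 1 fell, the cytokine gene LIF, at -1.32 ± 0.31 (adjusted p = 0.0479). With the block 4 fell, LIF, the chemokine genes CXCL2 and CXCL5, and HLA-B, by -1.63 to -1.35 (edgeR adjusted p = 0.0315 to 0.0428). DESeq2 called 3 of the inhibitors there, PDLIM2 higher (1.70, adjusted p = 0.0078) and TNIP1 and FAM105B lower. It called 3 of the targets, GADD45B higher (1.15, adjusted p = 0.00577) and LIF and CXCL5 lower. These counts, and that of the upstream genes, stand beside the 12.6% of all genes that DESeq2 called there. The median log2 fold changes without the block were -0.39 for upstream signalling, -0.38 for inhibitors and -0.38 for targets, beside -0.18 for all genes tested.

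For Dex in GFP cells, 0 genes of the 3 lists passed edgeR's test without the block, and 2 of 39, 5 of 20 and 8 of 33 had an unadjusted p under 0.05, beside 3.43% of all genes. The smallest p of each list belonged to BIRC3 (0.82 ± 0.34) and IL1R1 (0.36 ± 0.15), to NFKBIA (0.94 ± 0.16) and NFKBIZ (-1.06 ± 0.20), and to IER3 (-0.86 ± 0.17) and LIF (-0.79 ± 0.20), with edgeR adjusted p of 0.289 to 1. With the block, where 1.66% of all genes passed, 1 of 39 upstream genes rose, BIRC3 (0.85 ± 0.10, edgeR adjusted p = 0.000543). Of 20 inhibitors 3 rose, NFKBIA, which encodes IkappaBalpha (0.95 ± 0.09), TNFAIP3 (0.58 ± 0.11) and the RNase gene ZC3H12A (0.74 ± 0.12), and 2 fell, NFKBID (-0.88 ± 0.18) and NFKBIZ (-1.04 ± 0.12), which encode nuclear IkappaB proteins. Of 33 targets tested 1 rose, GADD45B (0.56 ± 0.10), and 6 fell, from CXCL3 at -1.39 ± 0.15 over IER3, CXCL1, LIF and IRF1 to PTGS2 at -0.51 ± 0.10. Their edgeR adjusted p with the block was 0.000201 (NFKBIA) to 0.0316 (NFKBID). DESeq2 called NFKBIA higher and NFKBIZ and IER3 lower, and 0 of the 39 upstream genes, beside 0.335% of all genes.

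In the other 3 comparisons 0 genes of the lists passed edgeR's test with or without the block, and those of smallest p are given with their log2 fold changes. For P300 against GFP in Dex they were TLR3 (-1.61 ± 0.47) and BIRC3 (-1.73 ± 0.60) of upstream signalling, PDLIM2 (1.58 ± 0.47) and BCL3 (0.84 ± 0.32) of the inhibitors, and CXCL5 (-0.99 ± 0.30) and MMP9 (4.12 ± 1.45) of the targets. DESeq2 called TLR3 lower (adjusted p = 0.0242) and PDLIM2 higher (adjusted p = 0.013) there, beside 3.66% of all genes. For Dex in P300 cells they were IRAK1 (1.17 ± 0.36) and SHARPIN (1.44 ± 0.46), NFKBIA (0.89 ± 0.36) and TNIP1 (0.62 ± 0.26), and CXCL3 (-1.28 ± 0.57) and CXCL2 (1.22 ± 0.56). For the interaction they were IRAK1 (1.24 ± 0.46) and SHARPIN (1.51 ± 0.58), TNIP1 (0.64 ± 0.34) and NFKBID (1.504 ± 0.808), and LIF (1.15 ± 0.42) and CXCL2 (1.52 ± 0.71). DESeq2 called 0 genes of the lists in these last 2 comparisons, beside 2.59% and 0.659% of all genes.

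Over the 10 libraries the log2 CPM of NFKB2 and RELB had a Pearson r of 0.90, and that of REL and CHUK of 0.90. These are descriptions over libraries that share vector, treatment or replicate number and differ in depth. Among 16411 other genes with a mean of at least 1 CPM, the patterns most like NFKB2 were those of C5orf42 (r = 0.98) and ZFHX4 (0.97), and those most like RELB were WHAMMP3 (0.96) and PSENEN (0.95). For NFKB1 they were GAL (0.98) and C6orf48 (0.98), for REL ANKRD12 (0.98) and SLMAP (0.98), and for RELA NRBP1 (0.90) and S100A11 (0.89). For the kinases they were EHD1 (0.92) and PRR7-AS1 (0.89) for MAP3K14, SLC38A2 (0.99) and ARHGAP5 (0.99) for CHUK, TTC6 (0.97) and YPEL4 (0.97) for IKBKB, and NCSTN (0.98) and HERC2P9 (0.98) for IKBKE. RELA and MAP3K14 thus had the least close neighbours of the 9.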

How the data were processed

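The deposited table holds raw, whole-number counts of reads for each gene in each library. Per the submitters' processing notes, the tools were cutadapt, STAR 2.4.2a, HTSeq 0.6.1p1 and DESeq2 1.10.1, with the genome build GRCh37. The gene annotation is, like the strand setting, not given in the sources used here, and the labels name 2 sets of RNA and library kits without tying them to libraries. The authors' 10 columns of normalized counts were not used. The set of 9 genes, the lists and the tests were chosen with earlier results of these data known, while the rule that picks the 9 rows uses symbols alone. All 9 were named throughout, with the list genes past the threshold or, with none, the 2 of smallest p, and the 2 genes most like each member. Counts were tested with edgeR 4.0.16 (R 4.3.3, quasi-likelihood, TMM, filterByExpr by group, a design with group alone, two-sided, Benjamini-Hochberg, threshold 0.05). Dex in GFP was fitted on the 6 GFP libraries, since P300 libraries spread more widely, and the other comparisons on all 10. All 9 genes passed the filter. CPM use TMM-scaled sizes, log2 CPM a prior count of 2, and exon lengths come from GENCODE 29 (IKBKE matched by symbol). Deviations from group means correlated in all 13 pairs of libraries with the same replicate number (r = 0.113 to 0.601) and at -0.484 to 0.24 in 24 other pairs. Centring on means of 2 or 3 libraries ties these values to one another, and the ranges overlap. Pairing by number is therefore taken as plausible and not as shown. The 8 pairs within groups differed by more than sampling noise (chi-square per degree of freedom 8.41 to 227.4). The fits were tested on simulated data. Alternatives were the block, DESeq2 1.42.0, limma 3.58.1 voom with a weight per construct, other scalings and filters, other sets of libraries and each library left out.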

Additional observations from a re-analysis of the deposited data

Results flagged for a closer look

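The interaction of NFKB2 was 0.52 on the log2 scale (edgeR adjusted p = 0.859), so the test of the difference did not pass. It is listed because NFKB2 was lower with Dex in 3 of 3 GFP pairs and higher in 2 of 2 P300 pairs. MAP3K14, IKBKB and IKBKE were also lower in 3 of 3 GFP pairs, and the share of all genes with either pattern was not counted. The P300 differences of 0.21 and 0.32 stand beside all-gene medians of 0.04 and 0.48, and the GFP difference of replicate number 1 was -0.05. Without P300 Dex replicate 2 the interaction was 0.13, and without P300 EtOH replicate 2 it was 0.85.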

How the results depend on the processing

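For Dex in GFP the count of members past the threshold went from 0 to 1 (MAP3K14) with the replicate block. It was also 1 with the block and any 1 GFP library left out, which in effect drops its pair and leaves 2 pairs. With the block on all 10 libraries the count was 0. For P300 in EtOH it went from 1 (NFKB2) to 0 with only the libraries compared, with voom, with GFP libraries of numbers 1 and 2, and over the leave-outs it was 0 to 1. For P300 in Dex it went from 0 to 1 (NFKB2) with DESeq2. The causes were not tested. Added to the main fits, the block changed no other call of a member. Added to the fit of only the libraries compared, it brought back the NFKB2 call in P300 in EtOH (edgeR adjusted p = 0.000284). That fit rests on 2 pairs. Of 945 alternative log2 fold changes 91 had the opposite sign, 0 of them past the threshold in either fit. Subunit shares by counts, without lengths, put RELA above RELB in GFP EtOH (27.2% against 16.4%). Per kb RELB was above RELA there (25.2% against 23.3%).

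Over all genes, P300 in EtOH gave 541 calls, but 0 to 5 without any 1 GFP library and 4187 without P300 EtOH replicate 1. Leaving out its replicate 2 gave 1073, and leaving out P300 Dex replicate 1 or 2 gave 2218 or 2162. There were 2440 with DESeq2, 148 with voom, 49 with only the libraries compared and 0 with GFP numbers 1 and 2. Its split of 310 higher and 231 lower became 355 and 191 under RLE scaling, or 301 and 414 under unscaled sizes, and the all-gene median was -0.18, -0.04 and -0.41. Dex in GFP gave 7, but 277 with the block, 232 to 1202 with the block and 1 library left out, 56 with DESeq2, 0 to 19 with 1 library left out and 0 with all 10 libraries, unscaled sizes, the 5 CPM filter or GFP numbers 1 and 2. Dex in P300 gave 0, but 503 with DESeq2, 6 with the compared libraries and the block, and up to 2394 without P300 EtOH replicate 1. P300 in Dex gave 2, but 712 with DESeq2, 150 with the compared libraries and the block, 14 with no filter and 0 to 499 with 1 library left out. The interaction gave 0, but 128 with DESeq2 and 1407 without P300 EtOH replicate 1. The low total of P300 EtOH replicate 2 and the 2 libraries per P300 group limit every comparison with P300.

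For Dex in GFP, leave-outs that crossed 0 ranged from -0.21 to 0.049 for NFKB1, -0.25 to 0.01 for REL, -0.20 to 0.17 for RELA, -0.36 to 0.003 for IKBKE and -0.14 to 0.24 for CHUK. The sign also turned for REL to 0.075 with GFP numbers 1 and 2, 0.079 with the block without GFP EtOH replicate 3 and 0.081 with the block without GFP Dex replicate 3, and for RELA to 0.11 with the block without GFP EtOH replicate 2 and 0.11 with the block without GFP Dex replicate 2, and for CHUK to -0.065 with the block without GFP EtOH replicate 2 and -0.064 with the block without GFP Dex replicate 2. For Dex in P300, leave-outs that crossed 0 ranged from -0.57 to 0.84 for NFKB1, -0.11 to 0.62 for NFKB2, -1.60 to 0.28 for REL, -0.013 to 0.32 for RELA, -0.62 to 0.16 for RELB, -1.09 to 0.19 for IKBKB, -1.49 to 1.46 for IKBKE, -0.80 to 0.17 for CHUK and -0.57 to 0.59 for MAP3K14. The sign also turned for NFKB1 to 0.063 with the replicate block and 0.073 with only the libraries compared and the block, and for IKBKE to -0.10 with voom, and for MAP3K14 to -0.031 with voom. For P300 in EtOH, leave-outs that crossed 0 ranged from -1.14 to 0.27 for NFKB1, -0.24 to 0.51 for REL, -0.43 to 0.27 for IKBKB and -0.34 to 0.20 for CHUK. The sign also turned for IKBKB to 0.04 with only the libraries compared, 0.12 with DESeq2, 0.12 with RLE and 0.13 with the filter of 5 CPM in 2 libraries, and for REL to -0.004 with unscaled library sizes, and for CHUK to -0.23 with unscaled library sizes and -0.055 with no filter. For P300 in Dex, leave-outs that crossed 0 ranged from -1.33 to 0.55 for REL, -0.25 to 0.14 for RELA, -0.98 to 0.30 for IKBKB, -2.54 to 0.42 for IKBKE, -0.91 to 0.059 for CHUK and -0.34 to 0.81 for MAP3K14. The sign also turned for RELA to 0.046 with the replicate block, 0.12 with only the libraries compared and the block, 0.10 with DESeq2, 0.03 with voom, 0.10 with RLE, 0.085 with the filter of 5 CPM in 2 libraries, 0.074 with EP300 removed and 0.022 with GFP numbers 1 and 2, and for REL to 0.092 with DESeq2, 0.092 with RLE, 0.072 with the filter of 5 CPM in 2 libraries and 0.029 with EP300 removed. For the interaction, leave-outs that crossed 0 ranged from -0.51 to 0.90 for NFKB1, -1.53 to 0.35 for REL, -0.062 to 0.34 for RELA, -0.44 to 0.35 for RELB, -0.93 to 0.35 for IKBKB, -1.32 to 1.64 for IKBKE and -0.88 to 0.092 for CHUK. The sign also turned for NFKB1 to 0.12 with the replicate block, 0.068 with unscaled library sizes, 0.007 with no filter and 0.06 with EP300 removed, and for RELB to 0.087 with voom and 0.038 with EP300 removed.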
